A study of Mus musculus with 6 samples.

Results

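The collagen family was followed in the inferior vena cava of mice 24 h after its ligation, which halts the flow so that blood clots inside the vein. All genes whose symbol is Col, a number, the letter a and a number were taken as members. This gave 29 genes of the 16533 listed. Other collagen chains, such as Col4a3 and Col4a4 of type IV, are not among the listed genes. By the structure of the protein, 9 members are fibrillar, 4 are chains of the type IV basement membrane network and 16 belong to other classes. Each library came from a pool of 3 thrombi with the vein around them, because 1 thrombus gave too little RNA. The 3 control pools came from Stingf/f mice, in which the gene of the DNA-sensing adaptor STING is flanked by loxP sites. The 3 mKO pools came from Stingf/f Lyzm-Cre+/- mice, which carry the same floxed gene and Cre recombinase at 1 of their copies of the lysozyme M locus (gene Lyz2), active in neutrophils, monocytes and macrophages. The sample titles call the control animals WT mice and the mKO animals Sting mice. No group carried Cre without the floxed gene. All veins were ligated, so no value describes an unligated vein. Neither the age nor the sex of the mice is stated in the labels.

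Collagens are secreted as trimers of α chains wound into a triple helix. Fibrillar collagens, above all types I and III, form the tension-bearing cables of the vein's outer and middle coats and are made by fibroblasts and smooth muscle cells. Type IV collagen forms the sheet under the endothelium and around each smooth muscle cell, and types VI, VIII, XV and XVIII sit at the border between these sheets and the fibres. Collagen exposed by a damaged wall binds platelets, and collagen laid down later turns a thrombus into scar.

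Levels are given as CPM (read counts scaled to the TMM-adjusted library size), and a fold change is that of mKO over control on the log2 scale, with its standard error (SE), from edgeR's quasi-likelihood test over all 16523 genes tested. The library totals ran from 158579864 to 180068483 counts. Member counts ran from 18 for Col11a1 in mKO pool 1 to 83916 for Col4a1 in control pool 2, and all 29 members passed the low-count filter. Nothing says that pools of a group came from separate experiments, so p-values measure the spread between pools. The targeted gene Sting1 had 25.1, 31.4 and 27.1 CPM in control and 22.7, 21.4 and 28.7 CPM in mKO, so its level over the whole tissue overlapped between groups (log2 fold change -0.20, SE 0.14, adjusted p 0.579). Markers of smooth muscle, endothelium, fibroblasts and blood cells were all present, and in such a mixed tissue fewer cells of a type and less RNA per cell cannot be told apart.

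Most collagen genes had a lower mean level in mKO, but none passed the test. By edgeR, 0 of 29 members had an adjusted p under 0.05, as did 0 of all genes (0.0% of 16523). Log2 fold changes were below 0 for 25 members and above 0 for 4, with a median of -0.41; over all genes tested, 54.1% were below 0 and the median was -0.03. By unadjusted p under 0.05, 3 members were lower and 0 higher, where 6.26% of all genes were lower and 5.6% higher. The 3 were Col4a1, Col6a4 and Col23a1. The groups did not overlap for 3 members, Col6a4, Col11a1 and Col23a1, all lower in mKO, and 0 were higher without overlap, where 9.39% of all genes were lower and 8.76% higher without overlap. DESeq2 also called 0 of 29 members, beside 2.88% of all genes, and had 6 at an unadjusted p under 0.05, beside 14.0% of all genes. Limma voom with quality weights called 0 members and 0.0% of all genes. It had 6 members at an unadjusted p under 0.05, among them Col15a1, which was higher in mKO, beside 12.5% of all genes. Members are measured in the same 6 pools and moved together from pool to pool, so their shared direction does not count 25 times.

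**Figure D1:**
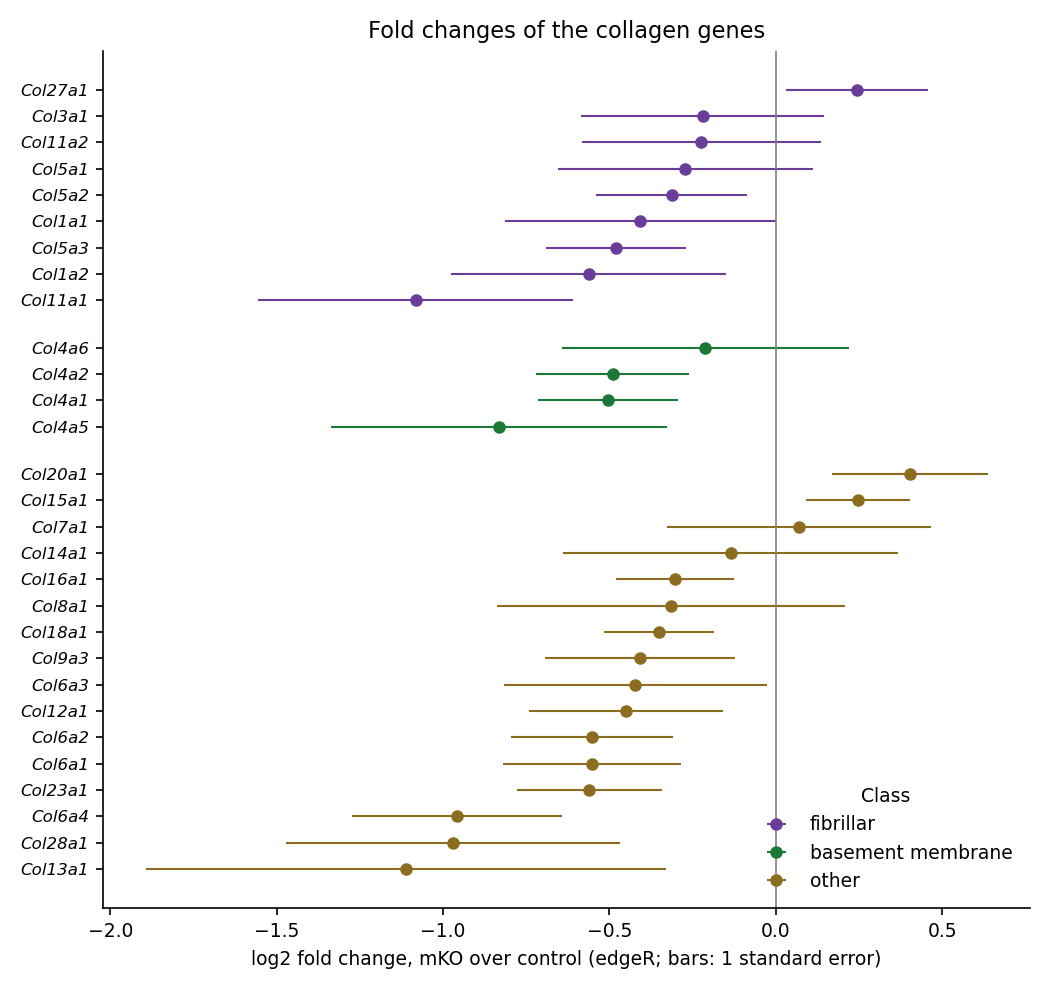
Log2 fold change of each collagen gene, mKO over control, with bars of 1 SE, for the fibrillar (9), basement membrane (4) and other (16) classes. Points lie left of 0 for 25 genes, and the 4 to the right are Col27a1, Col20a1, Col15a1 and Col7a1.

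Pools of 1 genotype also differed from each other. Control pool 2 had the highest level of 18 members and mKO pool 2 the lowest level of 15, and mKO pool 3 exceeded control pools 1 and 3 for 14 of the 29. Over all genes, control pool 2 was highest for 27.05% and mKO pool 2 lowest for 25.97%. Among the 14 members with a mean of at least 10 CPM, control pool 2 was highest for 13, with Col15a1 the exception. Summed over the family, collagens took 1581, 2304 and 1333 CPM in the control pools and 1289, 967.0 and 1670 CPM in the mKO pools. Only control pool 2 stood above mKO pool 3 in this sum, and only mKO pool 1 and pool 2 fell below all controls. Without control pool 2 the median fold change of the family was -0.18, and without mKO pool 3 it was -0.62.

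Markers of other cells differed between pools as well, and not all in the order of the collagens. The 9 smooth muscle markers, among them Acta2, Myh11 and Tagln, summed to 1629, 3397 and 1420 CPM in control and 1096, 823.7 and 1705 CPM in mKO, so control pool 2 was again highest and mKO pool 2 lowest. All 9 had a negative log2 fold change (median -0.79), and none of them passed the test. Of the 5 pericyte markers, 2 were below 0 and 3 above it (median 0.08). They summed to 150.6 to 301.7 CPM in control and 145.9 to 362.9 CPM in mKO, with mKO pool 3 highest. The 10 endothelial markers summed to 929.5 to 1067 CPM in control and 699.0 to 846.8 CPM in mKO, with Vwf the largest part (means 341.1 and 267.9 CPM). All 10 were below 0, from -1.22 for Cldn5 to -0.047 for Tie1, and 4 were lower without overlap, beside 9.39% of all genes. Of the 10 fibroblast markers 7 were below 0 (median -0.18), with Clec3b at -1.02 (SE 0.34) lower and Pi16 at 0.49 (SE 0.18) higher without overlap, and Dcn, the proteoglycan decorin, at 0.011 (SE 0.28). They summed to 929.1 to 1212 CPM in control and 1080 to 1098 CPM in mKO, sums that Gsn dominates with means of 681.5 and 719.8 CPM. The sum of the 6 red cell genes was lowest in control pool 2, at 200896 CPM, and highest in mKO pool 2, at 284840 CPM. In the remaining pools it was 238868 to 270633 CPM. The sum of the 7 neutrophil markers was lowest in control pool 2 (7928 CPM) and highest in mKO pool 2 (14785 CPM), but S100a8 and S100a9 dominate it. Of the 7, 4 were lowest in control pool 2 and 3 in mKO pool 3, and only 2 were highest in mKO pool 2. Their log2 fold changes were below 0 for 4 and above 0 for 3. The sum of the 8 measured skeletal muscle genes ran from 4.33 to 53.3 CPM in control and from 5.42 to 185.4 CPM in mKO. It was highest in mKO pool 3. The 6 sympathetic neuron markers summed to 4.78 CPM in mKO pool 3 and to 97.1 to 314.9 CPM in the remaining pools. All 5 platelet markers were below 0, with sums of 3898, 5034 and 5780 CPM in control and 2987, 4441 and 3020 CPM in mKO. Of the 6 macrophage markers, 1 was below 0 and 5 above it. Adipocyte markers were below 0 for 6 of 7, and Schwann cell markers for 5 of 6. The part of these cell markers in the collagen levels was not tested.

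**Figure D2:**
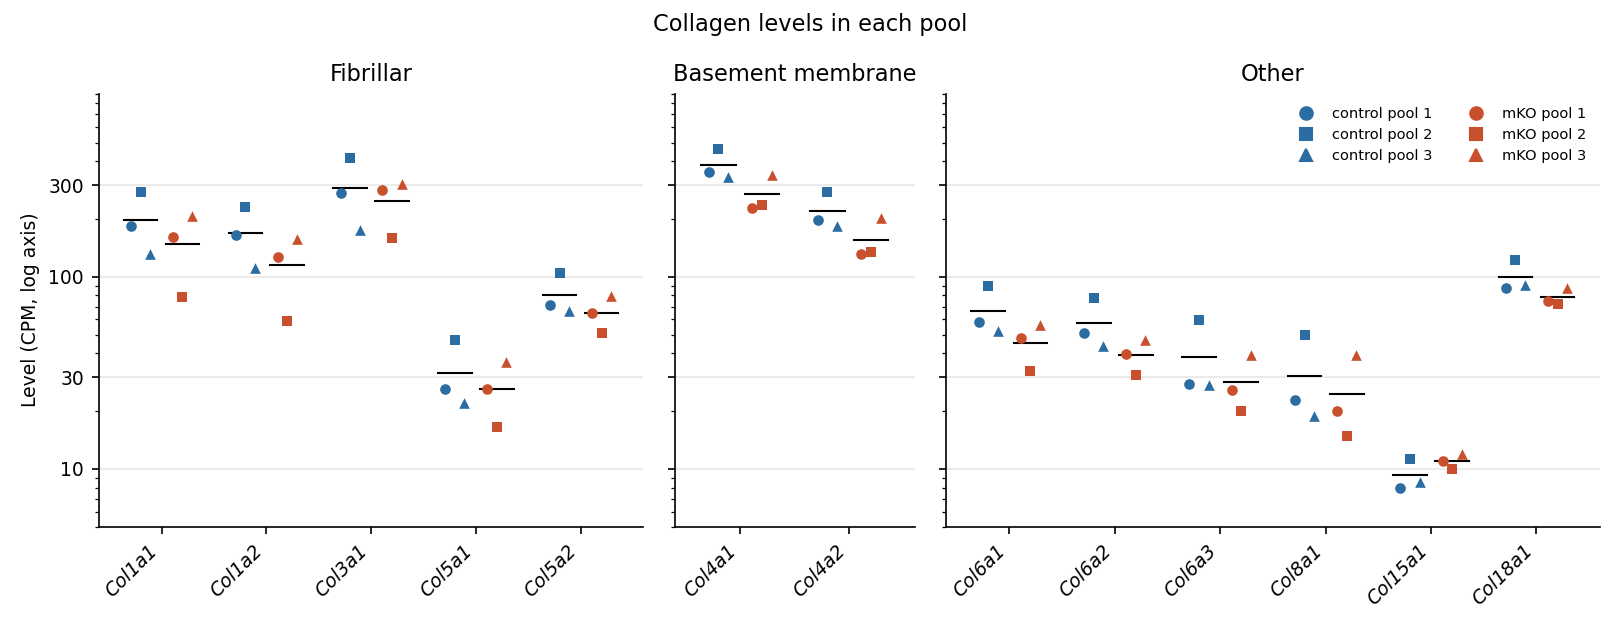
Level in CPM (log axis) of 13 collagen genes in each of the 6 pools, blue for control and orange for mKO, with a bar at the group mean. Control pool 2 (blue square) is highest for all but Col15a1, and mKO pool 2 (orange square) is lowest for all but Col4a1, Col4a2 and Col15a1.

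Fibrillar collagens had the class median nearest 0. Of 9 members, 8 had a log2 fold change below 0, with a median of -0.31, and 0 passed. Col1a1, the main chain of type I collagen (ENSMUSG00000001506, chromosome 11), had 183.2, 276.4 and 131.1 CPM in control and 160.4, 78.8 and 206.4 CPM in mKO. The groups overlapped, with mKO pool 2 alone below all controls. Its log2 fold change was -0.41 (SE 0.41, adjusted p 0.680 by edgeR), and -0.08 without control pool 2.

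Col1a2, the partner chain of the type I trimer (ENSMUSG00000029661, chromosome 6), had 165.5, 231.5 and 110.7 CPM in control and 127.0, 58.8 and 157.9 CPM in mKO. The groups overlapped, and the log2 fold change was -0.56 (SE 0.41, adjusted p 0.588), or -0.27 without control pool 2 and -0.25 without mKO pool 2. Col3a1, the chain of the more pliable type III fibres of vessel walls (ENSMUSG00000026043, chromosome 1), had 272.6, 417.6 and 175.3 CPM in control and 282.1, 158.4 and 302.9 CPM in mKO. Here mKO pools 1 and 3 both exceeded control pools 1 and 3. The log2 fold change of -0.22 (SE 0.37, adjusted p 0.808) turned to 0.15 without control pool 2 and to 0.020 without mKO pool 2.

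Because the ratio of Col3a1 to Col1a2 did not overlap between the groups, the 250 bases before the start of each are shown. They are from RefSeq on build GRCm38.p6, 5′ to 3′ on the strand of the gene. Of all 406 ratios between 2 members, 54 (13.3%) did not overlap, and a link between these sequences and the ratio was not tested. The Col1a2 window is chr6:4505368-4505617 and the Col3a1 window chr1:45311288-45311537, both on the plus strand. Capitals mark matches, on either strand, to the letters TATAAA of a core promoter box, to the letters CCAAT read by the factor NF-Y, and to the letters GGGCGG read by the factor Sp1; none of the matches shown overlap.
Col1a2: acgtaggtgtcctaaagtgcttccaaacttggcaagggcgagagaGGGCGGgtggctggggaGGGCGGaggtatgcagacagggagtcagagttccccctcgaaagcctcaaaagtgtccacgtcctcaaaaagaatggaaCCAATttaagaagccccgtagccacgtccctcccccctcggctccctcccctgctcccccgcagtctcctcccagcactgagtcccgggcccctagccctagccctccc
Col3a1: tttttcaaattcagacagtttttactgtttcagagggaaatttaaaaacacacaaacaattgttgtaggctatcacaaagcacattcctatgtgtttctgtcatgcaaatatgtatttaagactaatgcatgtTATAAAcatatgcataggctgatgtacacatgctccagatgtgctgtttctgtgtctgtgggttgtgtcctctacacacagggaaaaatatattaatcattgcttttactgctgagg
The Col1a2 window holds GGGCGG at 205 and 188 bases and CCAAT at 109 bases before the start, and the Col3a1 window holds TATAAA at 117 bases before it. Of all 32851 promoter windows of this length, the first motif is in 12.4%, the second in 33.8% and the last in 32.7%. Windows were found for 24 of the 29 members, 26 in all, of which 3, 10 and 17 held these motifs in the same order. A match describes the letters in this window and not a bound site.

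Type V chains, which join type I fibres and limit their width, followed the same pools. Col5a1 had 26.1, 46.6 and 22.1 CPM in control and 26.02, 16.5 and 36.1 CPM in mKO (log2 fold change -0.27, SE 0.38, adjusted p 0.777), and this turned to 0.12 without control pool 2. Col5a2 had 71.2, 105.3 and 66.2 CPM in control and 65.1, 50.8 and 79.5 CPM in mKO (-0.31, SE 0.23, adjusted p 0.581), and its value was -0.077 without control pool 2 and -0.16 without mKO pool 2. Col5a3 had another pattern, with its highest level in control pool 3: 8.59, 11.7 and 14.4 CPM in control against 7.27, 9.94 and 7.71 CPM in mKO. Its groups overlapped only through mKO pool 2, and the log2 fold change was -0.48 (SE 0.21, adjusted p 0.428), or -0.29 without control pool 3.

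Among the minor fibrillar chains, Col11a1, best known from cartilage, was the sparsest member. It had 0.517, 0.373 and 0.691 CPM in control and 0.104, 0.314 and 0.328 CPM in mKO, from 18 to 107 counts. No mKO pool reached the control range, and the log2 fold change was -1.08 (SE 0.47, unadjusted p 0.0536, adjusted p 0.427), or -0.71 without mKO pool 1. Col27a1 was the fibrillar member above 0, with 3.08, 3.71 and 3.27 CPM in control and 3.18, 3.59 and 5.15 CPM in mKO. Only mKO pool 3 lay outside the control range, and the log2 fold change of 0.24 (SE 0.21, adjusted p 0.634) was 0.014 without it. Col11a2 had a log2 fold change of -0.22 and overlapping groups. Of the cartilage markers, Sox9 alone was measured, at 0.289 to 0.762 CPM over the 6 pools.

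Basement membrane collagen had the most negative median of the 3 classes, -0.50 over 4 members, all below 0, and again 0 passed. Col4a1 (ENSMUSG00000031502, chromosome 8), the main chain of the type IV network, had 352.5, 460.3 and 329.5 CPM in control and 229.5, 237.9 and 337.8 CPM in mKO. Pools 1 and 2 of mKO lay well below all controls, and mKO pool 3 lay between control pools 1 and 3. The log2 fold change was -0.50 (SE 0.21, unadjusted p 0.0442, adjusted p 0.407). Exact permutation of the pools gave a two-sided p of 0.2. It ranged from -0.70 without mKO pool 3 to -0.35 without control pool 2.

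Col4a2 (ENSMUSG00000031503, chromosome 8), which joins Col4a1 in the same trimer, had 196.7, 276.4 and 184.6 CPM in control and 132.2, 134.3 and 201.8 CPM in mKO. The order of the pools matched that of Col4a1 except between mKO pool 3 and control pool 1 (log2 fold change -0.49, SE 0.23, adjusted p 0.450), and the value was -0.29 without control pool 2. Both genes lie head to head, and their first exons overlap by 22 bases on opposite strands in the annotation. These bases, chr8:11312805-11312826 on GRCm38.p6, begin at the RefSeq start of one gene and end at that of the other, so each transcript opens with the reverse complement of the other's first bases. The run is shown on both strands because the levels of this pair moved almost as 1 quantity. Motifs were not marked in the run, and the letters gggcgg that it holds on the Col4a2 strand are left in lower case.
Col4a2: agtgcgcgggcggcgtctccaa
Col4a1: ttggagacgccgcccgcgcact
Col4a5 and Col4a6, the chains of a rarer trimer, also lie head to head, on the X chromosome. Col4a5 was low and variable, with 3.18, 5.72 and 2.53 CPM in control and 1.86, 1.01 and 3.55 CPM in mKO (log2 fold change -0.83, SE 0.50, adjusted p 0.534; -0.42 without control pool 2). Col4a6 stayed under 1 CPM in every pool (log2 fold change -0.21, SE 0.43).

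In each of the 8 pairs computed, the ratio between the chains varied less over the pools than the level of either chain. Col4a1 varied 2.01-fold and Col4a2 2.09-fold over the 6 pools, but their ratio varied only 1.08-fold. Per kb of exon, Col4a1 stood at 1.70 ± 0.0696 times Col4a2 in control and 1.68 ± 0.0478 times in mKO (SD, n = 3 each). Col6a1 and Col6a2, neighbours on chromosome 10, varied 2.78-fold and 2.50-fold with a ratio that varied 1.17-fold. For type I collagen, Col1a1 varied 3.51-fold, Col1a2 3.93-fold and their ratio 1.21-fold. These were the steadiest of the ratios computed. The Col4a5 to Col4a6 ratio, also of a head-to-head pair, varied 2.56-fold, beside 5.64-fold for Col4a5 and 2.96-fold for Col4a6, which had 38 to 134 counts. The remaining ratios varied 1.40-fold to 1.70-fold. These pairs were picked, most of them as chains of 1 trimer, and the spread of other pairs was not computed. Since members moved together from pool to pool, whether partner or neighbouring chains are steadier than other pairs was not tested.

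In type I and type III collagen these ratios differed between genotypes without overlap. Col1a1 per kb stood at 0.998, 1.08 and 1.07 times Col1a2 in control and at 1.14, 1.21 and 1.18 times in mKO. Every mKO pool thus had more Col1a1 for each Col1a2 than any control pool. Col3a1 per kb stood at 1.58, 1.73 and 1.52 times Col1a2 in control and at 2.13, 2.59 and 1.84 times in mKO, the widest gap being in mKO pool 2, where all these genes were lowest. Exact permutation gave a two-sided p of 0.1 for each ratio, which is as low as 3 pools against 3 can go, and 0.4 after Benjamini-Hochberg adjustment over the 8 ratios computed. The Col3a1 to Col1a1 ratio overlapped between groups (exact two-sided permutation p 0.3, adjusted 0.6). Of all 406 ratios between 2 members, 54 (13.3%) did not overlap.

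**Figure D3:**
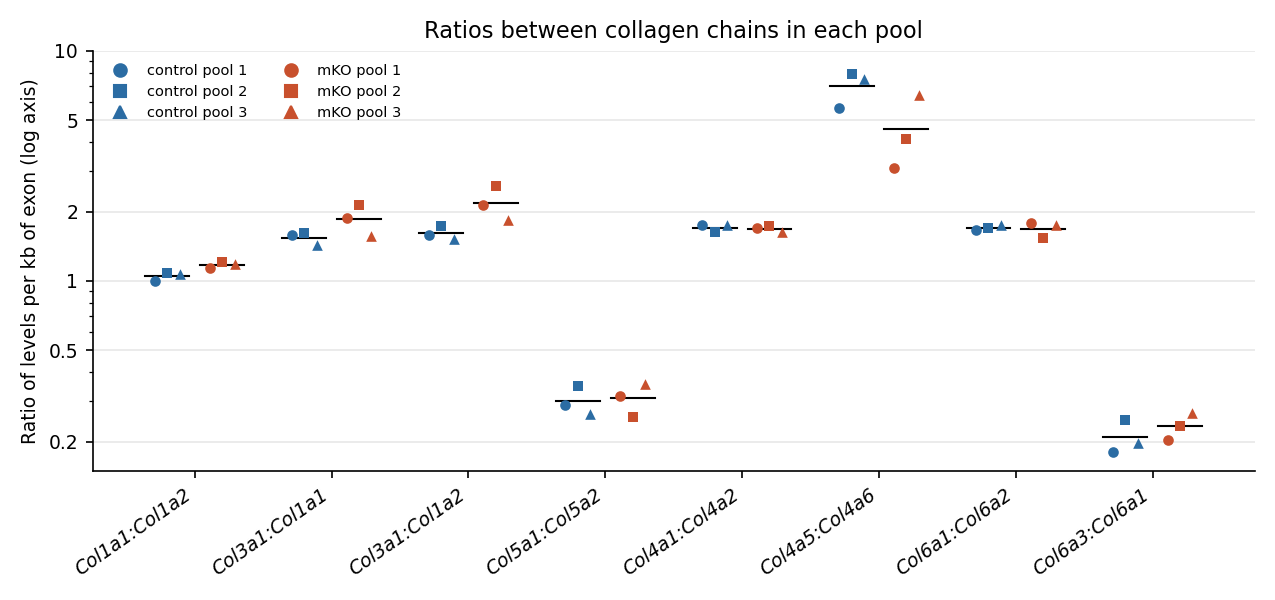
Ratio of levels per kb of exon between 8 pairs of collagen chains (log axis) in each of the 6 pools, with a bar at the group mean. The Col4a1 to Col4a2 ratio stays near 1.7 in both groups, and the Col1a1 to Col1a2 and Col3a1 to Col1a2 ratios lie higher in all 3 mKO pools than in any control pool.

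Type VI collagen, which forms beaded filaments at the border of basement membranes and anchors cells to the fibres, was lower on average in mKO for all its 4 members. Col6a1 had 57.8, 89.9 and 52.3 CPM in control and 48.1, 32.4 and 56.0 CPM in mKO (log2 fold change -0.55, SE 0.27, adjusted p 0.465). Col6a2 had 50.9, 77.5 and 43.8 CPM in control and 39.5, 31.0 and 47.1 CPM in mKO (-0.55, SE 0.24, adjusted p 0.433). In both, mKO pools 1 and 2 lay below all controls and mKO pool 3 lay above control pool 3; the values were -0.28 and -0.27 without control pool 2. Col6a3, the long chain of the same trimer, had 27.7, 59.4 and 27.3 CPM in control and 25.9, 20.1 and 39.4 CPM in mKO (-0.42, SE 0.40, adjusted p 0.662). Its value turned to 0.049 without control pool 2.

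Col6a4, a minor relative of Col6a3, had the smallest p of the family. It had 0.827, 1.33 and 0.852 CPM in control and 0.376, 0.622 and 0.550 CPM in mKO, from 65 to 242 counts. All 3 mKO pools lay below all 3 controls (log2 fold change -0.96, SE 0.31, unadjusted p 0.0170, adjusted p 0.333). Exact permutation gave a two-sided p of 0.1, the lowest it can give here. Its exons overlap those of 2 annotated transcripts on the opposite strand, and the counting strand is not given, so reads of either could be included. Col28a1, which shares the von Willebrand domains of type VI, ran from 1.73 to 4.22 CPM in control and from 0.679 to 2.07 CPM in mKO, with control pool 3 highest (log2 fold change -0.97, SE 0.50, adjusted p 0.483). Without control pool 3 its value was -0.43.

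Of the network and multiplexin collagens, Col8a1 and Col18a1 were below 0 and Col15a1 above it. Col8a1, the short-chain collagen that smooth muscle and endothelial cells lay down in injured vessels, had 22.8, 50.05 and 18.9 CPM in control and 19.95, 14.8 and 39.0 CPM in mKO. Its log2 fold change of -0.31 (SE 0.52, adjusted p 0.809) turned to 0.24 without control pool 2. Col18a1, a basement membrane collagen whose end fragment is endostatin, had 87.3, 121.7 and 90.2 CPM in control and 74.7, 72.1 and 87.7 CPM in mKO. The groups met only between control pool 1 and mKO pool 3, and the log2 fold change was -0.35 (SE 0.16, adjusted p 0.450), or -0.18 without control pool 2. Its close relative Col15a1, which links basement membranes to the fibres beside them, had the opposite sign: 7.95, 11.2 and 8.58 CPM in control and 11.0, 9.99 and 11.9 CPM in mKO. Only control pool 2 reached the mKO range (log2 fold change 0.25, SE 0.16, adjusted p 0.543). The value was 0.15 without control pool 1 and 0.41 without control pool 2.

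The FACIT collagens sit on the surface of fibres. Of 5 members, 4 had a log2 fold change below 0, from -0.45 for Col12a1 to -0.14 for Col14a1, with overlapping groups throughout. Col12a1 had 12.5 to 21.2 CPM in mKO against 16.4 to 30.2 CPM in control. Without control pool 2 the value of Col12a1 was -0.13 and that of Col14a1 turned to 0.28. Col20a1 was the exception, with 1.74, 1.31 and 2.16 CPM in control and 2.09, 2.24 and 2.56 CPM in mKO (log2 fold change 0.40, SE 0.23, adjusted p 0.513), and its value was 0.23 without control pool 2. Its exons overlap another listed transcript by 79 bases. Col9a3, whose exons overlap Tcfl5 by 234 bases on the opposite strand, and Col16a1 had values of -0.41 and -0.30; that of Col9a3 was -0.23 without control pool 3.

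Of the membrane-spanning collagens, Col23a1 had the smallest coefficient of variation of the family among control pools, 8.36%. It had 1.27, 1.15 and 1.36 CPM in control and 0.746, 0.890 and 0.919 CPM in mKO, without overlap, on 129 to 233 counts. The log2 fold change was -0.56 (SE 0.22, unadjusted p 0.0343, adjusted p 0.387; exact two-sided permutation p 0.1), and the value stayed between -0.62 and -0.47 on leaving out each pool. Col13a1 ran from 0.218 to 1.38 CPM within control alone, and its log2 fold change of -1.11 had an SE of 0.78. It was -0.097 without control pool 2 and -1.73 without mKO pool 3. Col7a1, the anchoring fibril collagen of epithelia, had 0.702, 0.993 and 1.75 CPM in control and 0.878, 1.07 and 1.67 CPM in mKO (0.071, SE 0.40, adjusted p 0.950). Of the surface epithelium markers, Dsp and Trp63 were measured, each under 1 CPM in every pool.

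Per kb of exon, which allows genes to be compared, Col4a1 was the most abundant collagen in control at 57.6 ± 10.6 CPM per kb, before Col3a1 at 51.9 ± 21.9 (SD, n = 3 each). Their order changed between pools: Col4a1 was the higher in control pools 1 and 3 and mKO pool 2. Col4a2 (34.0 ± 7.73), Col1a1 (33.2 ± 12.4) and Col1a2 (31.6 ± 11.3) followed and differed by less than their spread. Col6a1 stood at 16.3 ± 4.95 CPM per kb, Col18a1 at 14.7 ± 2.81 and Col5a2 at 12.2 ± 3.21. The remaining 21 members had 9.56 CPM per kb or less. In reads, 4 genes, Col4a1, Col3a1, Col4a2 and Col1a1, took 61.6% to 63.6% of all collagen CPM in every pool.

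The balance between the classes overlapped between genotypes. Fibrillar genes summed to 739.8, 1098 and 535.3 CPM in control and 676.4, 385.1 and 804.2 CPM in mKO. Basement membrane genes summed to 552.9, 743.1 and 517.0 CPM in control and 364.2, 373.4 and 543.6 CPM in mKO, where mKO pool 3 alone reached the control range. As a share of the collagen total, fibrillar genes took 44.9% ± 4.09 in control and 46.8% ± 6.43 in mKO, and basement membrane genes 35.3% ± 3.28 and 33.1% ± 5.21 (SD, n = 3 each). The difference of the class medians, -0.31, -0.50 and -0.41 for fibrillar, basement membrane and other collagens, was not tested, since the members were chosen with results known. Without control pool 2 these medians were -0.08, -0.32 and -0.16.

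**Figure D4:**
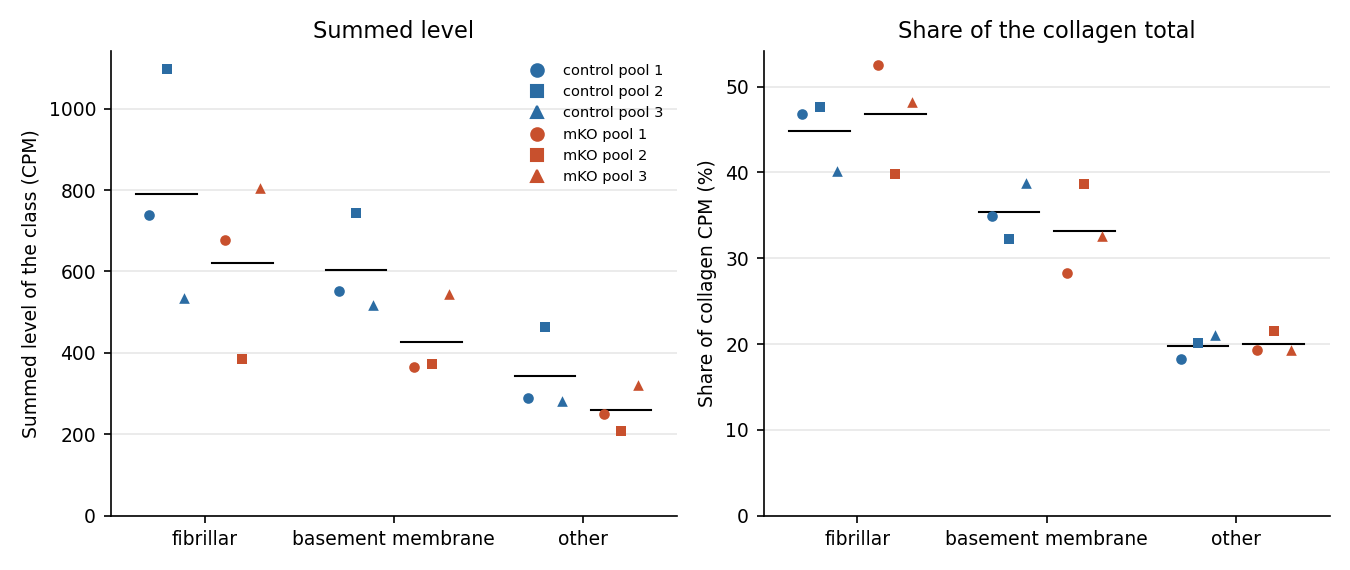
Summed level (CPM, left) and share of the collagen total (percent, right) of the 3 classes in each pool, with a bar at the group mean. Fibrillar sums overlap widely, basement membrane sums overlap through mKO pool 3 (543.6 CPM), and the shares of all 3 classes overlap.

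Genes that build the basement membrane with type IV collagen were mostly lower on average in mKO. Of 16 measured, 13 had a log2 fold change below 0 (54.1% of all genes), the median was -0.39, and 0 passed (smallest adjusted p 0.246). By unadjusted p under 0.05, 10 were lower and 1 higher, beside 6.26% and 5.6% of all genes. Without overlap, 8 were lower and 1 higher, beside 9.39% and 8.76% of all genes. Agrn, the heparan sulfate proteoglycan agrin, had 20.6, 20.6 and 18.4 CPM in control and 11.0, 10.5 and 15.7 CPM in mKO (-0.68, SE 0.17, adjusted p 0.246). The laminin chain Lama2 had a value of -0.97 (SE 0.25), without overlap. Lamb3, another laminin chain, was the gene above 0 without overlap, at 0.66 (SE 0.20).

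The machinery that modifies and secretes collagen had a median of -0.12 over 21 genes, 16 of them below 0, and 0 passed. Without overlap, 2 were lower, P4ha3 and Sec23a, and 1 was higher, the protein disulfide isomerase P4hb, beside 18.2% of all genes in either direction. The prolyl hydroxylase subunits had opposite signs: P4ha1 had 182.4, 134.1 and 161.2 CPM in control and 172.3, 257.0 and 231.4 CPM in mKO (0.47, SE 0.19), and the scarcer P4ha3 had a value of -0.66 (SE 0.24). Sec23a, of the vesicle coat that carries procollagen out of the endoplasmic reticulum, had -0.25 (SE 0.11). Of 12 processing and crosslinking genes, 3 were lower without overlap and 0 higher, beside 9.39% and 8.76% of all genes (median -0.19). Lox, lysyl oxidase, which crosslinks collagen and elastin, had 143.9, 149.8 and 105.3 CPM in control and 90.7, 74.0 and 94.8 CPM in mKO (-0.62, SE 0.17, adjusted p 0.301). Its paralog Loxl1 had -0.47 (SE 0.14), and the propeptide-cleaving protease Bmp1 had -0.30 (SE 0.15) with overlapping groups.

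Of 11 collagen receptors 0 reached an unadjusted p of 0.05 by edgeR, beside 11.9% of all genes in either direction (median -0.30). Without overlap 1 was lower, the integrin chain Itgb1 (-0.37, SE 0.17), and 0 were higher, beside 9.39% and 8.76% of all genes. Ddr1 (-0.30, SE 0.17) and the platelet receptor Gp6 (-0.47, SE 0.28) overlapped. Among 14 genes of collagen degradation, Timp3, an inhibitor of metalloproteinases that is bound to the matrix, had the smallest p. It had 104.5, 131.8 and 126.7 CPM in control and 52.7, 59.1 and 68.1 CPM in mKO (-1.01, SE 0.15, adjusted p 0.134). The gelatinase Mmp9, which neutrophils store, had 693.7, 374.8 and 480.0 CPM in control and 920.1, 1012 and 746.7 CPM in mKO (0.79, SE 0.25, adjusted p 0.322), also without overlap; Mmp15 had -0.54 (SE 0.22). Of 14 fibril-associated genes, the matricellular protein Postn had 56.3, 82.0 and 54.4 CPM in control and 36.4, 22.4 and 34.7 CPM in mKO (-1.04, SE 0.23, adjusted p 0.232), Prelp had -0.70 (SE 0.22) and Comp 0.94 (SE 0.33). The median of that list was -0.15. Without overlap, 2 fibril-associated genes were lower and 1 higher, and 1 degradation gene was lower and 1 higher. Over all genes these shares were 9.39% lower and 8.76% higher.

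**Figure D5:**
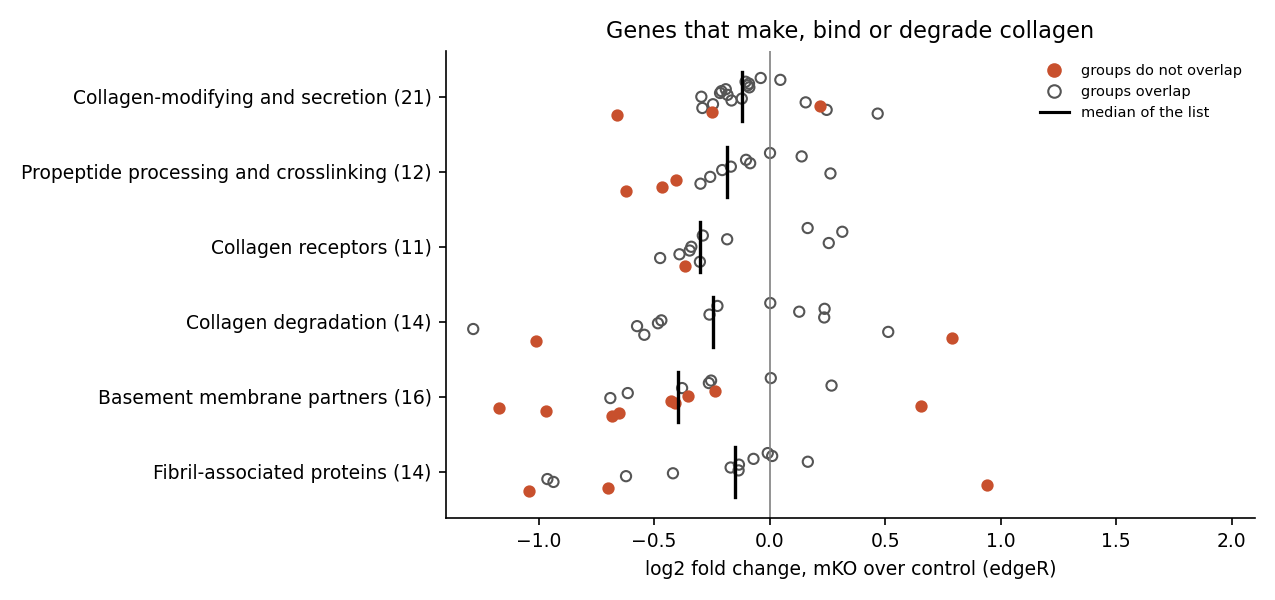
Log2 fold change, mKO over control, of the genes in 6 lists of collagen partners, with the number measured in brackets; filled points have groups that do not overlap and the bar is the median of the list. The basement membrane list has the most filled points, 8 below 0 and 1 above it.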

How the data were processed

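Polyadenylated RNA from 6 pools of 3 ligated, thrombus-containing veins was read from both fragment ends on the T7 nanoball platform (per the labels). Deposited were raw counts of reads per gene, 1 table per pool, with the same 16533 genes in each. The submitters' processing notes list build GRCm39 and the tools featureCounts 2.0.1, HISAT2 2.1.0, Trim Galore 0.4.0 and FastQC 0.11.8, without saying how each was used. The annotation release, the counting strand and how the listed genes were selected: not given in the sources used here. Without a stated strand, reads of overlapping genes cannot be told apart.

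The test across genes was that of edgeR 4.0.16, run in R 4.3.3 (quasi-likelihood F-test, TMM, robust dispersion, default filter), which left 16523 genes, with Benjamini-Hochberg adjustment over all of them and a threshold of 0.05. The SE is the one implied by the F-test. Single genes and ratios were also tested by exact permutation of the pools (two-sided, lowest possible p 0.1). Levels per kb use the merged exon length of GENCODE M21, and chromosomes and gene overlaps come from it too; it is on GRCm38, another build than the authors' counts. Promoter sequences are from RefSeq on GRCm38.p6. The fit was tested on simulated data in which genes were drawn independently, which does not cover members that move together. No pair of tables agreed within sampling noise.

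The members, classes, partner lists and markers were chosen with earlier results of these data known, so no list test was run. Named in full are 13 members set by their role, plus the 5 lower and up to 5 higher members with the smallest p; partner genes named are the 3 with the smallest p in each list, except 1 that is not reported here, and further ones (Lamb3, P4hb, Dcn, Clec3b, Pi16, Gsn, Sox9, Dsp, Trp63, Col4a5 and the other minor chains given with values) were chosen after their values were seen. The lists share Dcn, Lum, Dpt and Mmp8 with marker lists. The alternatives, 15 in all, were other scalings, other filters, DESeq2 1.42.0, limma 3.58.1 voom with quality weights, a fit with the replicate number as a block, the removal of each pool in turn, and that of haemoglobin and mitochondrial genes.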

Additional observations from a re-analysis of the deposited data

How the results depend on the processing

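The count of collagen genes called was 0 in all 15 alternatives, and 0 to 8 members had an unadjusted p under 0.05, the fewest without mKO pool 1 and the most without mKO pool 3. Over all genes, DESeq2 called 467, and leaving out single pools gave between 0 and 7 calls; all other alternatives gave 0. The median fold change of the family ran from -0.62 to -0.18 on leaving out each pool, of the fibrillar class from -0.48 to -0.08, of the basement membrane class from -0.71 to -0.32 and of the others from -0.64 to -0.16, the value nearest 0 in each class coming from leaving out control pool 2. The log2 fold change kept its sign in every alternative that tested the gene for 21 of 29 members; a mean of at least 1 CPM left out 5. With limma voom the sign turned for Col3a1 (0.10), Col5a1 (0.0064), Col4a6 (0.034), Col14a1 (0.21) and Col8a1 (0.049). On leaving out each pool the 8 members that turned ranged from -0.48 to 0.15 (Col3a1), -0.57 to 0.12 (Col5a1), -0.46 to 0.094 (Col4a6), -0.43 to 0.28 (Col14a1), -0.73 to 0.049 (Col6a3), -0.82 to 0.24 (Col8a1), -0.52 to 0.093 (Col11a2) and -0.24 to 0.51 (Col7a1). Control pool 2 was the pool whose absence turned 7 of these 8; Col11a2 turned without control pool 3. Col3a1 (0.020), Col4a6 and Col14a1 also turned without mKO pool 2, and Col7a1 without control pool 1 (-0.19) and without mKO pool 3. The cause was not tested. Same-numbered pools did not deviate together (correlations -0.14, -0.15 and -0.27), and the main fit did not pair them. With 3 pools per group, such correlations cannot show whether the numbers mark a pairing. With a replicate block 0 genes and 0 collagen genes were called, and the family median was -0.41. At 18 to 107 counts, Col11a1 has the largest counting error of the family.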
